A study of Mus musculus with 8 samples.

Results

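Transcripts of 10 microtubule-associated protein genes were followed in cultured mouse neurons lacking the kinase NUAK1 and in wild-type neurons. The members were chosen by name, as the rows of the deposited count table whose Ensembl identifier carries one of the symbols Map1a, Map1b, Map2, Map4, Map6, Mapt, Dcx, Dclk1, Stmn1 and Stmn2. All 10 were found among the 32726 gene identifiers of the table, 5 of them (Map1a, Map1b, Map2, Map4 and Map6) through their older symbols with the prefix Mtap. The comparison asks whether the mRNA of the proteins that bind, bundle or destabilise axonal and dendritic microtubules differs when Nuak1 is deleted.

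Poly-A RNA of 4 Nuak1 KO and 4 WT libraries was sequenced and counted per gene. KO neurons carry a constitutive deletion of Nuak1, in mice that die at birth, and WT neurons carry the intact gene. Neurons of both genotypes were prepared from embryonic cortex of C57Bl/6JRj mice and kept in serum-free medium for 5 days in vitro, with no drug or other agent. The labels also give each library a strain code that no source used here explains: BJ for KO1, KO2 and KO3, BK for KO4, WT2 and WT4, BO for WT1 and BQ for WT3. BJ thus occurs only in KO, and BO and BQ only in WT. The deletion was therefore present in every cell of the culture and not in neurons only. The label of each library gives the cell type as neurons and the tissue as cortex or hippocampus, without saying which of these was used. Libraries are named here by genotype and replicate number (KO1 to KO4 and WT1 to WT4). The study's methods give 4 animals per condition for its RNA sequencing, and the labels do not tie libraries to animals or cultures. Sample titles join the strain code to a number that is not explained. Whether libraries of the same code share an origin is not stated. The p-values below measure the spread between these libraries.

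Microtubules are polymers of alpha- and beta-tubulin that run along axons and dendrites and carry motor-driven transport of mitochondria and vesicles. Structural MAPs coat and stabilise the lattice: tau (Mapt) is known as the axonal MAP, MAP2 as the dendritic one, and MAP1B as the MAP of growing axons. Doublecortin and its kinase relative bind between protofilaments, whereas stathmins sequester tubulin dimers and favour disassembly. NUAK1 belongs to the AMPK-related kinases and is known to phosphorylate tau within its microtubule-binding repeats, a modification that cannot be seen in mRNA counts.

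Tau, MAP2 and MAP4 form one family through these repeats, and their coding sequences are shown because the repeats set these members apart from the other 7 and bind the microtubule. The repeat was searched as a protein pattern in the translated coding sequences of GENCODE M1 (lysine, any residue, glycine and serine, then 7 residues, then proline and 3 glycines). Of 22737 coding genes, 3 held it, and all 3 were members: Mapt with up to 4 copies, Map4 with up to 3 and Map2 with up to 2. Only exact matches to the pattern were found this way, and a repeat that departs from it was missed. These are thus numbers of matches and not of all tubulin-binding repeats. Each stretch below has 45 bases and is read 5′ to 3′ from the coding strand, with the 12 bases that encode lysine, any residue, glycine and serine, the opening of the pattern, in capitals.
Mapt repeat 1: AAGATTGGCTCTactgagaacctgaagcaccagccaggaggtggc
Mapt repeat 3: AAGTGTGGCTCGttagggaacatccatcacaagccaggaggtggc
Map4 repeat 1: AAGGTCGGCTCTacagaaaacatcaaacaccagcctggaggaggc
Map4 repeat 2: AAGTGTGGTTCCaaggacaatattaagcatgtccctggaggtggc
Map4 repeat 3: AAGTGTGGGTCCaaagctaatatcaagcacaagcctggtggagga
Map2 repeat 1: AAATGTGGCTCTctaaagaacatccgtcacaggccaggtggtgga
Map2 repeat 2: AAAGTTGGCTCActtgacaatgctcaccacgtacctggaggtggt

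In the Mapt transcript with 4 copies the 2 repeats shown began at coding bases 1699 and 1885, counted from the first base of the annotated coding sequence. Among the 7 Mapt transcripts that held the pattern, some had 3 copies and some 4, which is the known split into 3-repeat and 4-repeat tau. The copies were numbered here in the order found, so that the 2 matches in Map2 need not be its first repeats. Map2 repeat 1 shared 36 of 45 bases with Mapt repeat 3 and 29 with Mapt repeat 1. Map4 repeat 1 shared 36 bases with Mapt repeat 1 and 32 with Mapt repeat 3. The counts are per gene, so isoforms with different numbers of repeats were not separated in the data.

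Nuak1 checked the genotype labels. Its level was 2.47, 2.72, 1.96 and 2.35 CPM (counts scaled to a common library total) in KO1 to KO4, and 51.6, 68.5, 82.6 and 75.3 CPM in WT1 to WT4. All 8 libraries matched their label. In edgeR's quasi-likelihood test with Benjamini-Hochberg (BH) adjustment over all genes, the log2 fold change (KO minus WT) was -4.89 with a 95% interval of -5.19 to -4.60.

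Several facts of the libraries bear on all members. Total counts ranged from 31247078 in WT1 to 67155004 in WT2. KO1 and WT1 stood apart from the others on the first principal component of the 500 most variable genes, which held 51.9% of their variance, at -27.6 and -28.4 against 0.073 to 22.6. The sequencing lane in the labels was A for KO1, KO4, WT1 and WT3 and B for the others. Since only the code BK occurs in both genotypes, strain code and genotype can hardly be told apart, and with the code as a term 6 of the 10 members changed sign. Neuronal markers summed to between 2473 and 2942 CPM in every library, and 1 of 12 passed the study's lower rule (an absolute log2 fold change above 0.25 with unadjusted p under 0.05), Slc17a7, the vesicular glutamate transporter, which was lower in KO (log2 fold change -0.32). Markers of mitosis summed to between 223 and 362 CPM in KO and between 98.6 and 269 CPM in WT, and 7 of 12 passed that rule, all higher in KO, as did 2.22% of all tested genes. The summed markers of astrocytes (724 to 1396 CPM in KO, 696 to 1043 in WT), interneurons (217 to 355 and 195 to 322), progenitors (840 to 1094 and 841 to 1031), oligodendrocyte precursors (459 to 552 and 446 to 535), microglia (3.83 to 47.3 and 4.22 to 20.2) and endothelial cells and fibroblasts (12.7 to 21.9 and 6.75 to 35.8) overlapped between genotypes, and none of these markers passed the rule. By sign, all 7 astrocyte markers (median log2 fold change 0.22), 7 of 8 tested microglial markers (1.38) and 7 of 10 interneuron markers (0.25) were higher in KO, beside a median of 0.41 for the 12 mitosis markers. No marker was at 0 in every library. Whether the other cells took part in any difference below was not tested, and in bulk RNA fewer cells of a type cannot be told apart from less RNA per cell.

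None of the 10 members differed between KO and WT in the test. Of all 16272 tested genes, 0.0492% passed BH adjustment (8 genes, 2 higher and 6 lower in KO), and 0 of the 10 members did, with edgeR as with DESeq2. The study's lower rule was passed by 5.75% of tested genes (2.22% higher and 3.53% lower in KO) and by 0 members in either direction. This share is from the edgeR fit, whereas the study applied the rule to its own DESeq2 fit, so it is not the study's count. An unadjusted p under 0.05 was found for 10.6% of tested genes and 0 members, and CPM values that did not overlap between genotypes for 2.4% of tested genes and 0 members. With shares this small, a count of 0 among 10 genes does not set the members apart from genes at large. By sign alone, 2 members were higher and 8 lower in KO, with a median log2 fold change of -0.022 against 0.015 over all tested genes. The largest absolute value among the members was 0.15, and 37.1% of tested genes had a larger one. What the data give for each member is therefore its level, its spread and the interval within which a difference would lie.

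**Figure D1:**
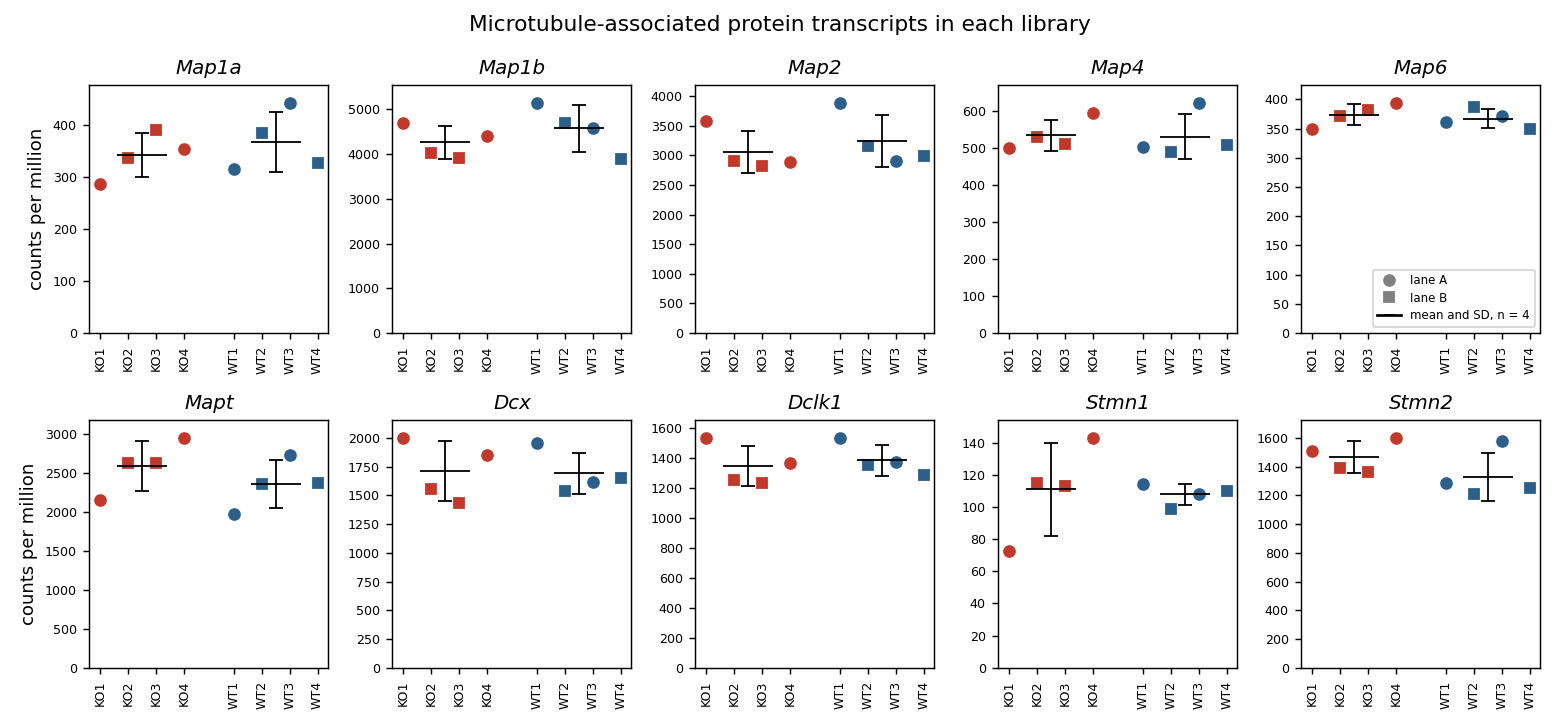
Level of each member in each library. The y axis of each panel is CPM from 0, the x axis the 8 libraries (KO in red, WT in blue), circles are lane A, squares lane B, and black bars the mean and SD of 4 libraries. KO and WT values overlap in all 10 panels.

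Map1b (chr13:99421464-99516602 on GRCm38, as are all positions given here, from RefSeq) encodes the MAP of growing axons and had the most counts of the members. It was at 4699, 4018, 3916 and 4399 CPM in KO1 to KO4 and at 5133, 4692, 4592 and 3881 CPM in WT1 to WT4. The lowest library of all, WT4, and the highest, WT1, were both WT. Its mean was 4258 CPM in KO (SD 360, n = 4) and 4574 CPM in WT (SD 519, n = 4). In the edgeR quasi-likelihood test KO minus WT was -0.15 on the log2 scale, with an SE of 0.109 and an adjusted p of 0.65. The value was -0.12 within lane A and -0.18 within lane B, each with 2 libraries a genotype.

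Map1a (chr2:121289590-121310832), the related MAP that prevails in mature neurons, was at 287, 336, 390 and 352 CPM in KO1 to KO4. In WT1 to WT4 it was at 315, 384, 441 and 327 CPM. KO1 and WT1, the highest libraries for Map2 and Dclk1, were the lowest for Map1a. By edgeR the log2 difference between KO and WT was -0.13, with an SE of 0.0852, a 95% interval of -0.32 to 0.062 and an adjusted p of 0.61. Within lane A it was -0.26 and within lane B -0.039. Of its exon bases 2.24% overlap Ppip5k1 on the opposite strand, and no source used here says whether reads were counted by strand. The ratio of Map1a to Map1b counts within a library was 0.0811 ± 0.0159 in KO and 0.0809 ± 0.0144 in WT (SD, n = 4), with no test. It was lowest in KO1 (0.0610) and WT1 (0.0613), and between 0.0801 and 0.0997 in the other 6 libraries.

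Map2 (chr1:66175202-66442583), the dendritic MAP, was at 3580, 2898, 2827 and 2890 CPM in KO1 to KO4. It was at 3877, 3160, 2907 and 2996 CPM in WT1 to WT4. In each genotype replicate 1 was the highest, and the other 6 libraries lay between 2827 and 3160 CPM. KO was lower than WT by a log2 fold change of -0.13, whose SE was 0.0826. Its unadjusted p of 0.141 was the smallest of the members, and its adjusted p in edgeR's quasi-likelihood test was 0.589. It was -0.096 within lane A and -0.17 within lane B, and -0.11 without KO1 and WT1.

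Mapt (chr11:104229409-104332090), which encodes tau, was at 2152, 2625, 2620 and 2943 CPM in KO1 to KO4. In WT1 to WT4 it was at 1970, 2355, 2731 and 2366 CPM. Replicate 1 was the lowest library of its genotype in both, and the second highest value of all 8 was a WT library, WT3. Mean levels were 2585 CPM in KO (SD 326, n = 4) and 2355 CPM in WT (SD 311, n = 4). The edgeR estimate for Mapt was 0.11 on the log2 scale, with an SE of 0.0798 and an adjusted p of 0.643. Its 95% interval ran from -0.068 to 0.29, which is a fold between 0.954 and 1.22. It was 0.10 within lane A and 0.086 within lane B. The ratio of Map2 to Mapt counts, dendritic against axonal MAP, was 1.21 ± 0.309 in KO and 1.41 ± 0.390 in WT, and its highest values were 1.66 in KO1 and 1.97 in WT1, against 0.982 to 1.34 in the other 6 libraries.

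Map4 (chr9:109929841-110083954), the widely expressed member of the tau family, varied little. It was at 501, 530, 511 and 594 CPM in KO1 to KO4 and at 502, 489, 620 and 507 CPM in WT1 to WT4. WT3 was the highest library and KO4 the next, both from lane A, while the other 6 lay between 489 and 530 CPM. For Map4 edgeR gave a log2 difference of -0.017, an SE of 0.0843, a 95% interval of -0.21 to 0.17 and an adjusted p of 0.961. Within lane A it was -0.052 and within lane B -0.0023. Of the exon bases of Map4 in the older annotation, 24.5% lie also in a further identifier of the same symbol that has no row in the count table. The count ratio of Map4 to Mapt was 0.208 ± 0.0169 in KO and 0.226 ± 0.0207 in WT (SD, n = 4).

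Map6 (chr7:99266779-99337137) encodes the protein that protects microtubules from cold. It was the steadiest member, at 349, 372, 381 and 393 CPM in KO1 to KO4 and 361, 387, 371 and 350 CPM in WT1 to WT4. The highest library was only 1.13 times the lowest. The within-genotype SD of its log2 CPM was 0.067, and 1.56% of the 9640 genes with a mean of at least 10 CPM had a smaller one. KO minus WT was -0.010 on the log2 scale, with an SE of 0.0687 and an adjusted p of 0.971 by edgeR. The 95% interval of -0.16 to 0.14 was the narrowest of the members, and the lanes gave 0.00040 (A) and -0.037 (B). Map6 and Map4 were the 2 members whose interval stayed within 0.25 of 0 on the log2 scale, the study's own fold threshold. For the other 8 it reached past that value.

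Dcx (chrX:143855842-143933396), which encodes doublecortin of migrating and young neurons, was at 1998, 1553, 1435 and 1851 CPM in KO1 to KO4. In WT1 to WT4 it was at 1953, 1539, 1615 and 1654 CPM. KO1 and WT1 were the highest and KO3 the lowest. For Dcx edgeR gave a difference of -0.027 on the log2 scale (SE 0.103) with an adjusted p of 0.944. It was 0.085 within lane A and -0.16 within lane B, but the genotype by lane interaction of -0.25 (SE 0.146) had an unadjusted p of 0.128 and an adjusted p of 0.695 in edgeR's quasi-likelihood test. This was the smallest interaction p of the members, none of which was under 0.05, where 8.25% of all tested genes had one under 0.05 and 0.0% passed BH adjustment.

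Dclk1 (chr3:55242303-55539068), the doublecortin-like kinase, was at 1532, 1255, 1232 and 1363 CPM in KO1 to KO4. It was at 1530, 1352, 1372 and 1284 CPM in WT1 to WT4. The order of the libraries was close to that of Dcx, with KO1 and WT1 on top and KO3 last. The edgeR estimate was -0.086 on the log2 scale, its SE 0.0847 and its adjusted p 0.746. It was -0.027 within lane A and -0.15 within lane B. The ratio of Dclk1 to Dcx counts was 0.792 ± 0.0533 in KO and 0.822 ± 0.0502 in WT (SD, n = 4), and its 8 values lay between 0.736 and 0.879.

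Stmn2 (chr3:8509527-8561604) encodes the neuronal stathmin of growth cones. It was at 1511, 1388, 1364 and 1599 CPM in KO1 to KO4, and at 1285, 1206, 1577 and 1251 CPM in WT1 to WT4. Of the WT libraries, 3 lay below every KO library, and WT3 lay above 3 of the KO libraries. KO minus WT was 0.11 on the log2 scale with an SE of 0.103 and an adjusted p of 0.731 by edgeR, and the 95% interval was a fold between 0.919 and 1.27. It was 0.10 within lane A and 0.098 within lane B.

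Stmn1 (chr4:134468320-134473843), the stathmin of dividing and young cells, had the fewest counts and the widest spread. It was at 72.8, 115, 113 and 143 CPM in KO1 to KO4, and at 114, 99.1, 108 and 110 CPM in WT1 to WT4. Both the lowest and the highest library were KO, and all WT libraries lay between them. The KO libraries had an SD of 28.9 CPM, against 6.39 CPM for the WT libraries. For Stmn1 edgeR gave -0.013 on the log2 scale, with an SE of 0.159 and an adjusted p of 0.986, and its 95% interval was a fold between 0.771 and 1.27. The estimate was -0.064 within lane A, 0.061 within lane B and 0.19 without KO1 and WT1, so that its sign rests on the libraries taken.

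The low count of Stmn1 goes with a transcript that is mostly not unique in the genome. In its longest annotated transcript, 86.2% of all stretches of 50 bases and 71.8% of those of 100 bases also occurred, without a mismatch, somewhere else in the mouse genome (NCBIM37). The authors counted only uniquely aligned reads. Of the other members, Dcx had 0.565% of such stretches at 50 bases and none at 100, and the other 8 had none at either length. The level of Stmn1, and its ratio to Stmn2, are therefore uncertain in all libraries: Stmn2 had 14.0 ± 4.52 times the counts of Stmn1 in KO and 12.3 ± 1.53 times in WT, with the highest ratio, 20.8, in KO1.

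**Figure D2:**
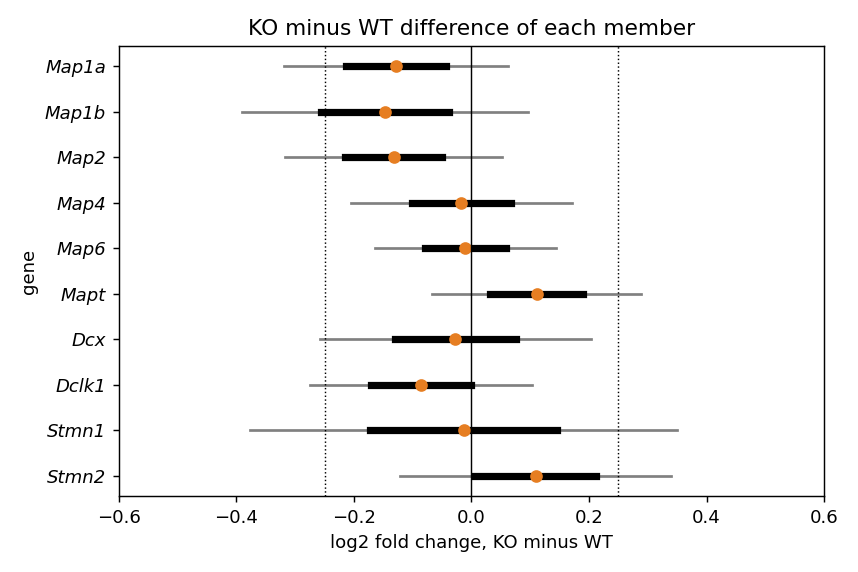
Difference between genotypes for each member. The x axis is the log2 fold change (KO minus WT), points are the estimates, thick bars 1 SE and thin lines the 95% interval, and dotted lines mark 0.25 to either side of 0. All 10 intervals include 0, and those of Map4 and Map6 stay within the dotted lines.

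Across the members the 95% intervals reached from -0.39 (Map1b) to 0.35 (Stmn1) on the log2 scale. The widest bounds are folds of 0.763 and 1.27, the first from Map1b and the second from Stmn1, and the other members had narrower intervals. These bounds hold for the model with 1 surrogate variable. With the strain code as a term the log2 estimates were 0.44 for Stmn1, 0.36 for Stmn2, 0.30 for Mapt and 0.24 for Map4. Each of them lay above the upper bound of its own interval, and none passed BH adjustment. The fewest reads of any member in any library were the 2533 of Stmn1 in KO1. Replicate spread was small in most members: the within-genotype SD of log2 CPM was under 0.215, the median of genes with a mean of at least 10 CPM, in 9 of 10 members, and 0.295 in Stmn1, where 69.8% of genes had a smaller one.

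Levels of different genes were compared per length, as CPM per kilobase of exon (all annotated exons of the gene joined), over the 8 libraries. Stmn2 was the highest at 734 ± 78.8 CPM per kb (SD, n = 8), followed by Map1b at 366 ± 37.0 and Mapt at 328 ± 42.4. Map1b was above Mapt in 5 of 8 libraries and their ranges overlapped, so that these neighbours were not separated. Map2 followed at 191 ± 23.3, Dcx at 134 ± 16.4 and Dclk1 at 101 ± 8.46 CPM per kb, each above the next in all 8 libraries. Stmn1 at 57.0 ± 10.1 and Map6 at 53.2 ± 2.34 overlapped, with Stmn1 higher in 6 of 8. The place of Stmn1 in this order is uncertain, since most of its transcript is not unique and only unique alignments were counted. Map4 at 41.1 ± 3.75 and Map1a at 29.1 ± 4.04 CPM per kb were the lowest, again apart in every library. The order depends on the length used: with the longest transcript in place of all exons, 6 of 10 members kept their rank, and Map2, whose joined exons of 16447 bases exceed its longest transcript of 6258 bases, moved to the second rank and above Mapt.

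**Figure D3:**
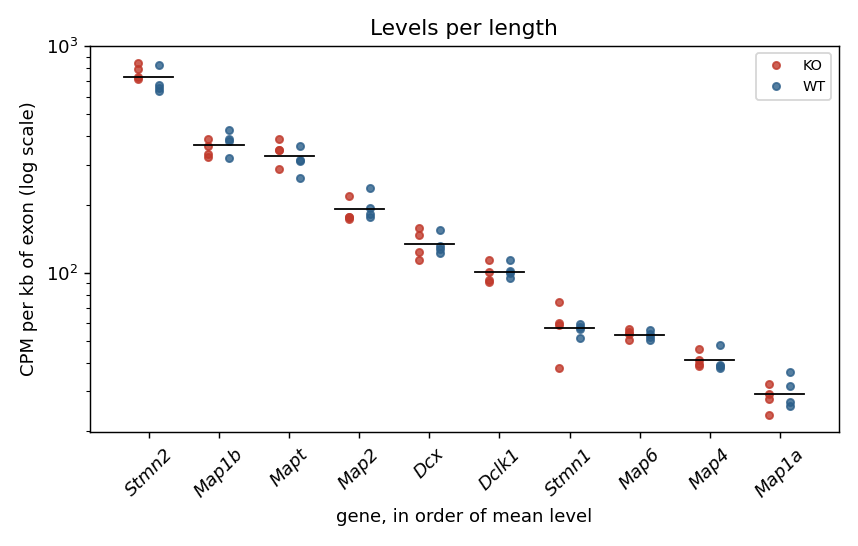
Level of each member per length, in order of the mean. The y axis is CPM per kb of exon on a log scale, points are the 4 KO (red) and 4 WT (blue) libraries, and the bar is the mean of all 8. The mean falls from 734 for Stmn2 to 29.1 for Map1a, and the only neighbours with overlapping ranges are Map1b with Mapt and Stmn1 with Map6. The place of Stmn1 is uncertain, since most of its transcript is not unique.

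Together the 10 members took between 1.47% and 1.70% of all counts of a library, 1.48% to 1.67% in KO and 1.47% to 1.70% in WT. Map1b, Map2 and Mapt made up 61.9% to 65.2% of that sum in every library.

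In 6 of the 10 members the pair KO1 and WT1 stood together at one end of the 8 libraries, and in none did the genotypes separate. The same holds for 49.4% of all 16272 tested genes, so that this position of the pair is not particular to the members. The pair were the 2 highest of 8 libraries for Map1b, Map2, Dcx and Dclk1, and the 2 lowest for Map1a and Mapt, and they took neither place for Map4, Map6, Stmn1 and Stmn2. In Stmn1, the most variable member, they lay on opposite sides of the mean, at -0.57 in KO1 and 0.081 in WT1 in log2 CPM centred on the gene mean. On the same scale Map2 was at 0.20 in KO1 and 0.31 in WT1, Dcx at 0.24 and 0.21, and Dclk1 at 0.17 and 0.17. Mapt was at -0.19 in KO1 and -0.32 in WT1, and Map1a at -0.29 and -0.16. The tubulin genes listed below had their lowest summed levels in the same libraries, 3774 CPM in KO1 and 3499 CPM in WT1, against 5626 to 7893 CPM in the other 6. These sums are uncertain. From 0.0% (Tubb6) to 82.9% (Tuba1b) of a tubulin's stretches of 50 bases also occurred elsewhere in the genome. What sets this pair apart was not tested.

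**Figure D4:**
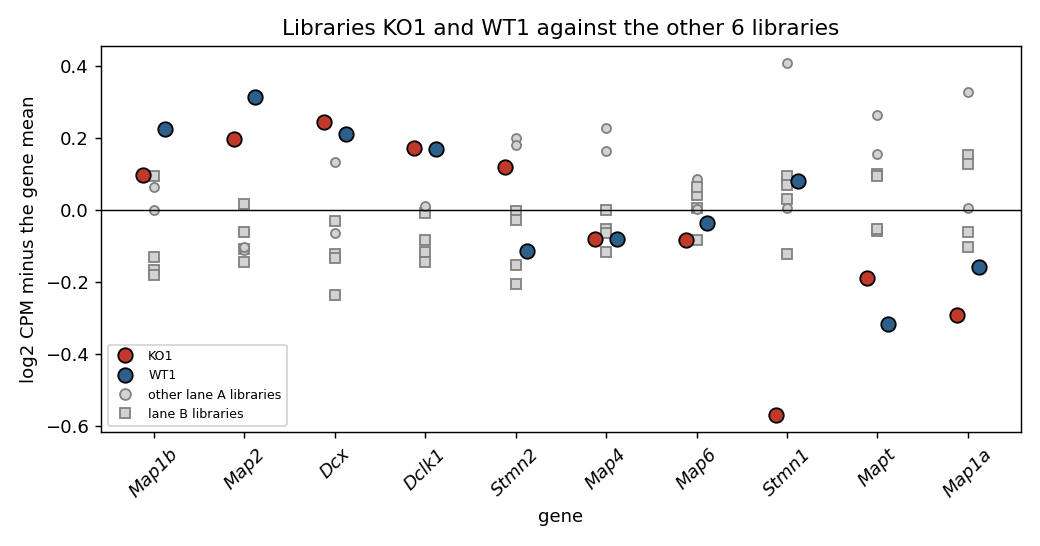
Members in KO1 (red) and WT1 (blue) against the other 6 libraries (grey, circles for lane A and squares for lane B). The y axis is log2 CPM minus the mean of the gene over 8 libraries, and the x axis the members. As in 49.4% of all tested genes, both coloured points lie to one side of all grey points in 6 members: above them for Map1b, Map2, Dcx and Dclk1 and below them for Mapt and Map1a.

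The pattern of each member over the 8 libraries was compared with that of every gene with a mean of at least 10 CPM, by the root mean square difference of centred log2 CPM. Dclk1 had the closest match of all, G3bp2 (0.0153), and Stmn1 the poorest, Kptn (0.137). Among the other members, the nearest genes were Zcchc17 for Mapt (0.0237), Fsd1l for Map2 (0.0306), Idh3a for Map4 (0.0390), Afg3l2 for Map6 (0.0437), Dnajc5 for Stmn2 (0.0504), Plpp6 for Map1b (0.0567) and Unc13a for Map1a (0.0608). None of these is a member. Map1b and Dclk1 were the closest pair of members at 0.0630, and Dclk1 was the fifth nearest of all genes to Map1b.

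The wider microtubule system was described by 87 genes in 7 lists, of which 85 were tested. With edgeR none passed BH adjustment, while 2 did with DESeq2, the tool that the study used. In edgeR 8 had an unadjusted p under 0.05 (10.6% of all tested genes did). The study's lower rule was passed by 4, 2 higher and 2 lower in KO. The latter is 4.71% of the tested genes of these lists, against the 5.75% of all tested genes. The median log2 fold change was 0.037 for 14 related MAPs, -0.027 for 16 proteins of plus ends and spectraplakins, 0.036 for 10 genes of minus ends, nucleation and severing, 0.091 for 10 tested tubulins, 0.062 for 15 tested enzymes of tubulin modification, 0.023 for 15 genes of kinases that act on MAPs and their activators, and -0.070 for 5 neurofilament genes, against 0.015 for all tested genes. The kinase genes included Mark1 to Mark4, Gsk3a, Gsk3b and Cdk5, and none of them passed the rule.

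Both genes that passed it with lower levels in KO encode spectraplakins, giant proteins that link microtubules to actin. Macf1 was at 1268, 1177, 1093 and 1079 CPM in KO1 to KO4 and at 1483, 1336, 1204 and 1348 CPM in WT1 to WT4. The genotypes overlapped only through KO1, which was above WT3. Its log2 fold change was -0.26 (SE 0.0701) with an unadjusted p of 0.0039 and an adjusted p of 0.312 in edgeR's quasi-likelihood test. Dst was at 656, 669, 661 and 596 CPM in KO1 to KO4 and at 723, 776, 824 and 723 CPM in WT1 to WT4. All 4 KO libraries lay below all 4 WT libraries, as in 2.4% of tested genes in either direction. The log2 fold change of Dst was -0.27 (SE 0.0746), with an unadjusted p of 0.00439 and an adjusted p of 0.314 by edgeR. The values within lanes A and B were -0.22 and -0.31 for Macf1, and -0.32 and -0.24 for Dst. With DESeq2 in place of edgeR both passed BH adjustment, at adjusted p of 0.0035 for Macf1 and 0.0268 for Dst. With the strain code as a term both missed the lower rule, at unadjusted p of 0.116 and 0.0793. They missed it in lane A alone too (0.421 and 0.187), and in lane B alone Dst missed it (0.0647). With 1 library left out, Macf1 missed the fold threshold without KO3 (-0.249) or WT2 (-0.231). Dst missed it without KO4 (-0.242) or WT3 (-0.245).

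Both genes that passed the rule with higher levels in KO encode tubulins of low count. Tuba1b was at 32.3, 33.1, 34.5 and 39.5 CPM in KO1 to KO4 and at 23.97, 27.4, 29.9 and 28.7 CPM in WT1 to WT4, with all KO libraries above all WT libraries. Its log2 fold change was 0.32 (SE 0.0719) with an unadjusted p of 0.00137 and an adjusted p of 0.248 in edgeR's quasi-likelihood test. Tubb4b was at 38.5, 49.0, 62.8 and 61.9 CPM in KO and at 31.6, 50.2, 48.5 and 43.7 CPM in WT, and the genotypes overlapped. Its log2 fold change was 0.26 (SE 0.0868) with an unadjusted p of 0.0125 and an adjusted p of 0.366 by edgeR. This pass depends on the fit and on the libraries taken. Without a surrogate variable the value was 0.249 with an unadjusted p of 0.236, and without KO1 and WT1 the unadjusted p was 0.0797. Leaving out KO3 (0.230), KO4 (0.224), WT3 (0.226) or WT4 (0.238) took the value under the fold threshold. Neither tubulin passed within lane A or within lane B, where the log2 values were 0.40 and 0.20 for Tuba1b and 0.31 and 0.18 for Tubb4b, and with the strain code Tubb4b was lost as well (unadjusted p 0.237). In Tuba1b 82.9% and in Tubb4b 57.9% of the stretches of 50 bases also occurred elsewhere in the genome, so that both counts are uncertain, as for Stmn1. The same limit bears on the median of the tubulin list. Beside these values, the markers of mitosis had a median log2 fold change of 0.41, and their sum was between 223 CPM (KO4) and 362 CPM (KO1) in KO and between 98.6 CPM (WT3) and 269 CPM (WT1) in WT. Their part in the tubulin differences was not tested.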

How the data were processed

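Counts were deposited as raw read counts per Ensembl gene. Per the labels and the study's methods, the authors demultiplexed with bcl2fastq 2.17.1.14, trimmed with cutadapt 1.10, discarded ribosomal RNA reads (Bowtie2 2.2.8 in the processing notes), aligned to mm10 with STAR 2.5.3a and counted unique alignments with HTSeq 0.6.1p1 in union mode. Labels and methods differ in read length and layout, and neither says whether strand was used. Symbols were matched for 22783 of 32726 identifiers, and 20916 had a GRCm38 position in the RefSeq table, by symbol.

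The genotype term was fitted with edgeR 4.0.16 in R 4.3.3 (filterByExpr by genotype, TMM, robust quasi-likelihood F test, BH threshold 0.05), with 1 surrogate variable from sva 3.50.0 as a covariate, as the study modelled unwanted variation. Fits with lane, strain code or replicate number as a term had that term in place of the surrogate variable, and fits within a lane or without the pair KO1 and WT1 had none. The 95% interval used the t quantile at edgeR's total degrees of freedom. The procedure was tested on simulated data. Exon lengths, transcripts and coding sequences were from GENCODE M1 on NCBIM37 and were not mixed with GRCm38 positions. Stretches of 50 and 100 bases of each gene's longest transcript were looked up on both strands of the genome outside the gene.

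The named genes were the 10 members, Nuak1, list genes past BH adjustment or, up to 3 a list, past the study's lower rule, and the nearest gene to each member. The nearest gene to Dcx and some repeat sequences are not reported here. Slc17a7, and the kinase genes named as having missed the rule, were named after their values were seen. The DESeq2 alternative used version 1.42.0. Members and lists were chosen with earlier results of these data known.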

Additional observations from a re-analysis of the deposited data

Results flagged for a closer look

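In 2 of the 20 groups of 4 libraries tested (each member in each genotype), 1 library lay farther from the rest than Dixon's 95% critical value allows, where chance gives about 1. The first was Map2 in KO, where KO1 was at 3580 CPM and the other 3 libraries lay between 2827 and 2898 CPM. The second was Map4 in WT, where WT3 was at 620 CPM and the other 3 lay between 489 and 507 CPM.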

How the results depend on the processing

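None of the 10 members passed BH adjustment or the study's lower rule in the main fit or in any of 19 alternatives. Map1a, Map2, Mapt and Stmn2 kept their direction throughout. The smallest unadjusted p values were 0.0131 for Stmn2 with 2 surrogate variables, 0.0174 for Map1a without WT4 and 0.0483 for Stmn1 without WT1. The strain code as a term reversed Map1b (0.018), Dclk1 (0.032), Map4 (0.24), Map6 (0.077), Dcx (0.20) and Stmn1 (0.44), and 2 surrogate variables reversed Map4 (0.069), Map6 (0.0065), Dcx (0.043) and Stmn1 (0.011). Stmn1 was also reversed with no surrogate variable (0.0052), lane as a term (0.0056), lane B alone (0.061) and without KO1 and WT1 (0.19). Map6 was reversed in lane A (0.00040) and without that pair (0.014), and Dcx in lane A (0.085). Leaving out 1 library at a time gave -0.15 to 0.25 for Stmn1, -0.076 to 0.045 for Map4, -0.048 to 0.030 for Map6, -0.13 to 0.040 for Dcx, -0.20 to -0.065 for Map1a, -0.22 to -0.10 for Map1b, -0.16 to -0.099 for Map2, 0.062 to 0.15 for Mapt, -0.14 to -0.050 for Dclk1 and 0.051 to 0.20 for Stmn2.

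Over all genes the BH count of 8 became 4 with no surrogate variable, with 2 or with lane as a term, 1 with the strain code, 45 with no filter, 168 with DESeq2, 0 in lane A, 99 in lane B, 3 without KO1 and WT1, and 3 to 91 without 1 library (91 without WT3). The lower rule's 936 genes became 396 with no surrogate variable, 452 with lane, 310 with the strain code, 1488 with no filter, 96 in lane A, 1612 in lane B, 555 without the pair, and 606 (without WT1) to 1403 (without WT4) without 1 library. Lane, strain code and replicate block each replaced the surrogate variable, so their moves are not those of the term alone. The cause was not tested. Of the microtubule lists, DESeq2 called 2 genes. The 4 genes past the lower rule became 1 with the strain code (Tuba1b), 0 in lane A, 3 with no surrogate variable, lane as a term, no filter or without KO1 and WT1 (Tubb4b lost in each), and 2 to 5 without 1 library (2 without KO3 or KO4). An unchanged count need not hold the same genes. With the replicate block it stayed at 4, but Tubb4b missed the rule in edgeR's quasi-likelihood test (0.245, unadjusted p 0.0609). Nuak1 passed BH adjustment in 18 of 19 alternatives, and in lane A alone its adjusted p was 0.849.

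Deviations from the genotype mean correlated at 0.80 between KO1 and WT1, and at 0.012, 0.249 and 0.0023 for replicates 2, 3 and 4. Libraries of unlike number were not correlated, so whether the replicate numbers pair the samples was not settled. With the replicate block the BH count was 3 and no member's call changed. In the level order 3 members kept their rank on CPM without length and 6 with the longest transcript, an alternative added after the data were seen. With 4 libraries a genotype, a difference inside a member's interval cannot be told from none in this fit.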
